A study of Mus musculus with 15 samples.

Results

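CD115plusGMP cells were compared with CMP cells, across every gene with a symbol that was measured above a set level in these 2 sorted populations of mouse bone marrow. GMP are granulocyte-monocyte progenitors, CMP are common myeloid progenitors, and CD115 is the receptor for colony-stimulating factor 1, encoded by Csf1r. The members are the genes with a symbol and a level above 2 log2 CPM (log2 of the reads scaled to a common library size) in at least 3 of the 6 libraries, which gave 7331 members of 14801 genes in the table, 14298 of which have a symbol. RNA came from fresh marrow of healthy mice and was sequenced after flow sorting, with 3 libraries per population among 15 libraries of 5 populations. No treatment, genotype, strain, age or time is given in the labels, and neither is the sorting gate beyond the population names. Whether the 3 libraries per population stem from separate mice is not given in the labels, so p-values measure the spread between libraries, which may be technical. Each population is a mixture of cells, so a difference can be in how many cells of a kind were sorted or in the RNA per cell, and these cannot be told apart in bulk RNA.

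As background, the CMP gate is known to hold cells with erythroid and megakaryocyte as well as granulocyte and monocyte potential, while GMP give rise mainly to granulocytes and monocytes. Cells on the way to monocytes and granulocytes are known to acquire receptors for cytokines, chemoattractants, sugars and complement, the kinases that carry signals from those receptors, an actin machinery for movement and engulfment, and lysosomes that digest what is taken up. Dividing progenitors in turn make large amounts of ribosomes, translation factors and DNA replication proteins. Genes on lists of granule, erythroid and monocyte genes are left aside here, except where they belong to another family.

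The libraries held 810794 to 1444403 reads, with a median of 51 reads per member summed over the 6, so the precision of single genes is limited. Identifiers without a symbol took 55.6 to 61.7% of the reads. Pearson's r between libraries over genes was 0.889 to 0.926 within a population and 0.714 to 0.740 between populations, as a description. A gene with no read stood between -1.31 and -0.79 log2 CPM in CMP libraries and between -0.62 and -0.07 in CD115plusGMP libraries, because the value depends on library size. ND6, the 1 protein gene on the light strand of mitochondrial DNA, took 81.7 to 93.3% of the reads on 13 mitochondrial protein genes in these 6 libraries, against 0.154 to 0.230% in the 6 libraries of the PreNeut_Neutrophil and ProNeut_Neutrophil populations. The reads assigned to a gene may therefore come from the strand opposite to it. In the annotation, 2835 of 7247 matched members overlap exons of an oppositely oriented gene over 50 bases or more. Such a neighbour is named below as the gene's partner, and reads of the pair cannot be told apart. A neighbour that shares fewer or no exon bases is not named. Reads of a gene without a partner may therefore also come from the opposite strand.

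In CD115plusGMP, 985 members were called higher and 714 lower, which is 13.4% and 9.74% of all members. A call needed an adjusted p under 0.05 in limma over all fitted genes and a log2 difference of at least 1. Differences are CD115plusGMP minus CMP on the log2 CPM scale, with the SE, and "rose" and "fell" refer to called members. The median member differed by -0.05, with quartiles at -0.81 and 0.77, and 2997 members (40.9%) had values that did not overlap between the populations. When reads were scaled to the total on genes with a symbol, the median moved by -0.37 and the split turned to 736 higher and 1224 lower, that is 37.6% higher among called members in place of 58.0%. List medians are therefore read against the median of all members. Without CMP replicate 2 or 3 the lower calls fell to 463 and 455, while no called member was called in the opposite direction under any setting tried. Without CD115plusGMP replicate 1 the majority turned, with 831 higher and 921 lower calls (47.4% higher). Among members, 700 passed the level in 1 population only and 569 of them were called, which the level itself favours. Members with a partner were called in 24.8% of cases and those without in 22.0%.

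**Figure D1:**
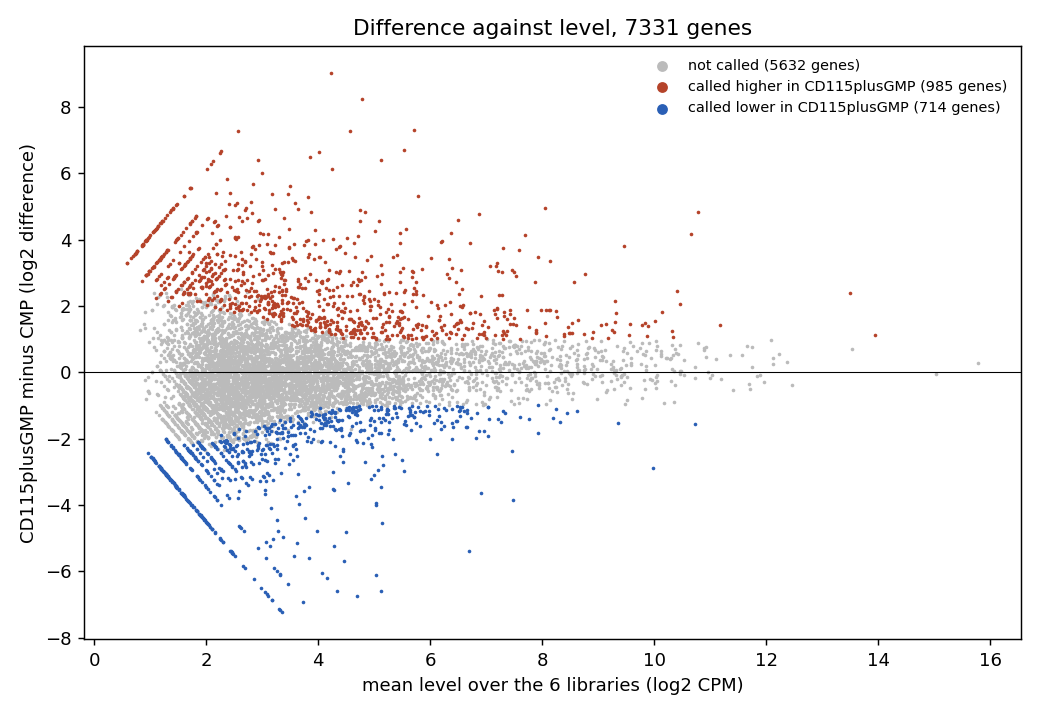
Log2 difference of CD115plusGMP minus CMP against the mean level over 6 libraries in log2 CPM, 1 point per member. The 985 higher and 714 lower calls are coloured, and the straight lines of points at low levels are genes with no read in 1 population.

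The leading genes without a partner that were higher in CD115plusGMP included an endocytic receptor, a peroxidase, an inflammasome sensor and complement and coagulation proteins. Lrp1, a large endocytic receptor (chr10:127538161-127621148, minus strand, GRCm38), had the largest increase among genes left by the naming rule. Outside it, Prune2, Ptgir and Unc5a, which have no partner either, differed by 7.27, 6.66 and 6.48, and were left aside because earlier results of these data had singled them out. Lrp1 had 0, 0 and 0 reads in CMP replicates 1 to 3 and 24, 19 and 23 reads in CD115plusGMP replicates 1 to 3. The populations did not overlap, and Lrp1 was at least 38.1-fold higher (adjusted p = 1.59e-06), a bound set by 3 reads over the CMP libraries. Lpo had 1, 0 and 1 reads in CMP replicates 1 to 3 and 59, 33 and 28 reads in CD115plusGMP replicates 1 to 3. Lpo was 104-fold higher (95% counting interval 28.2 to 869, adjusted p = 1.02e-06) and encodes lactoperoxidase (chr11:87806428-87828289, minus strand). Complement component C3 (chr17:57203970-57228136, minus strand) had reads in both populations. C3 stood at 1.53, -1.08 and 1.01 log2 CPM in CMP replicates 1 to 3 and at 6.34, 5.93 and 5.29 log2 CPM in CD115plusGMP replicates 1 to 3. All CD115plusGMP libraries lay above all CMP libraries, and C3 rose by 5.37 ± 0.67 (adjusted p = 1.00e-05), a difference that was 4.59 without CMP replicate 2. No CMP read was counted for the next 6 genes. Adcy4, an adenylyl cyclase, was at least 23.1-fold higher (adjusted p = 9.61e-06). Gpr141, an orphan receptor, was at least 26-fold higher (adjusted p = 1.25e-05). Mefv, which encodes pyrin, was at least 23.7-fold higher (adjusted p = 1.13e-05). These 3 had 40 to 45 reads each in CD115plusGMP. F10, coagulation factor X, was at least 20.2-fold higher (adjusted p = 1.84e-05), and Rab31, an endosomal GTPase, was at least 20.2-fold higher (adjusted p = 1.84e-05). Tgfbi, an extracellular matrix protein, was at least 17.9-fold higher (adjusted p = 4.25e-05). For the remaining gene, 3 CMP reads were counted. Atp8b4, a phospholipid flippase, was 46.2-fold higher (95% counting interval 15.3 to 229, adjusted p = 2.60e-05), with a fitted log2 difference of 5.13 that was 5.77 without CMP replicate 1 and 4.47 without CMP replicate 2.

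Genes lower in CD115plusGMP reached as large a difference, and their CMP values were tight. Only the 42 genes of the erythroid list were left aside as erythroid. The genes below are outside that list but may still belong to the erythroid line, which was not tested. Hemgn, which encodes the nuclear protein hemogen (chr4:46393989-46413506, minus strand), had the largest decrease among genes left by the naming rule. Hemgn stood at 6.83, 6.51 and 6.63 log2 CPM in CMP replicates 1 to 3 and at -0.62, 1.5 and -0.07 log2 CPM in CD115plusGMP replicates 1 to 3. The lowest CMP value was above every CD115plusGMP value. Hemgn was 183-fold lower (95% counting interval 32.6 to 7245, adjusted p = 1.82e-07), with a fitted log2 difference of -6.39 that was -7.01 without CD115plusGMP replicate 2. Ublcp1, a phosphatase of the nuclear proteasome (chr11:44454571-44470498, minus strand), was not counted in CD115plusGMP. Ublcp1 had 53, 62 and 82 reads in CMP replicates 1 to 3 and 0, 0 and 0 reads in CD115plusGMP replicates 1 to 3. Ublcp1 was at least 37.9-fold lower (adjusted p = 3.00e-07). Cathepsin E and biliverdin reductase B showed the same direction. Ctse stood at 6.17, 6.44 and 6.43 log2 CPM in CMP replicates 1 to 3 and at 0.96, -0.09 and -0.07 log2 CPM in CD115plusGMP replicates 1 to 3. Blvrb stood at 5.98, 6.50 and 6.28 log2 CPM in CMP replicates 1 to 3 and at -0.62, -0.09 and 1.51 log2 CPM in CD115plusGMP replicates 1 to 3. Neither gene overlapped between the populations. Ctse was 150.0-fold lower (95% counting interval 26.7 to 5946, adjusted p = 1.29e-07). Blvrb was 141-fold lower (95% counting interval 25.1 to 5605, adjusted p = 7.86e-07), with a fitted log2 difference of -5.98 that was -6.61 without CD115plusGMP replicate 3. Ccdc27, which encodes a coiled-coil protein, was 92.1-fold lower (95% counting interval 31.3 to 448, adjusted p = 2.00e-08), and Ttll12, of the tubulin-ligase-like family, was 82.5-fold lower (95% counting interval 28 to 402, adjusted p = 8.76e-08), with a fitted log2 difference of -6.05 that was -6.66 without CD115plusGMP replicate 3. Further genes of this set were the phosphatase Ppm1l, the adhesion molecule Cadm3 and the vesicle protein Vamp5. Ppm1l was at least 28.8-fold lower (adjusted p = 1.24e-06). Cadm3 was 108-fold lower (95% counting interval 19.2 to 4306, adjusted p = 2.87e-06), with a fitted log2 difference of -5.59 that was -6.20 without CD115plusGMP replicate 2. Vamp5 was at least 24.8-fold lower (adjusted p = 4.02e-06).

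**Figure D2:**
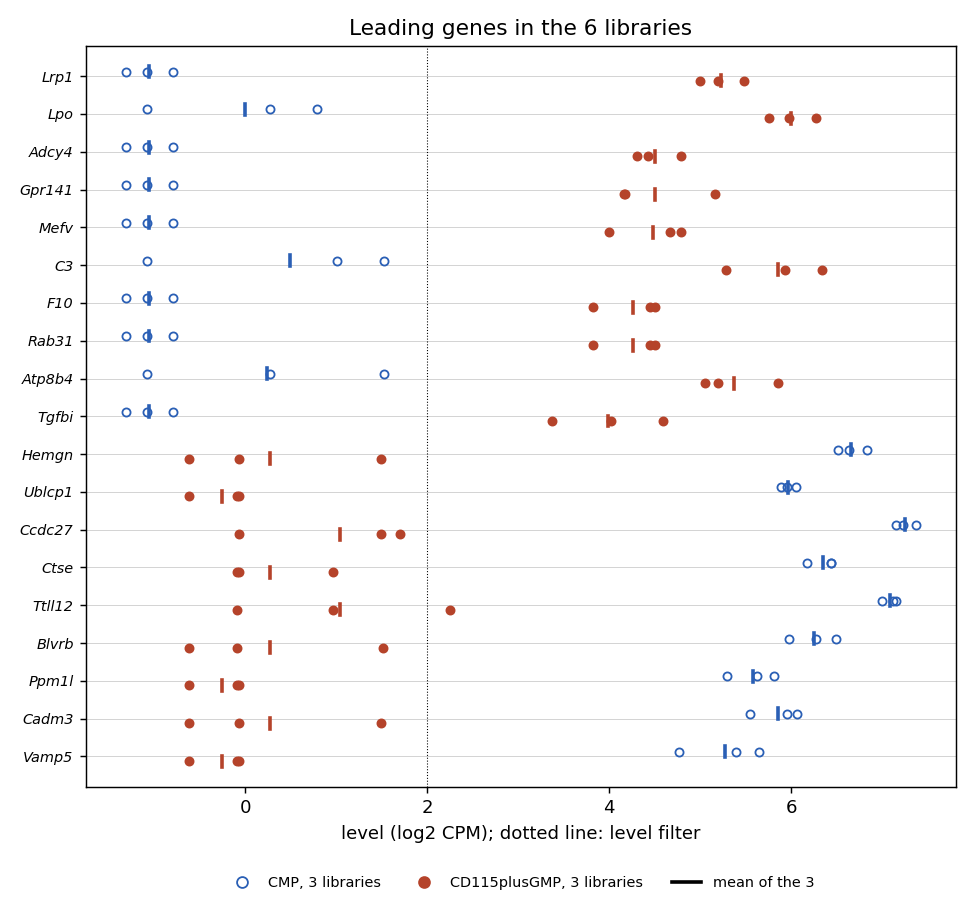
Level in log2 CPM of the leading genes described in each direction, with 1 point per library (open blue, CMP; filled red, CD115plusGMP), ticks at the mean of 3 libraries and a dotted line at the level filter of 2. The populations do not overlap for any gene shown, a condition of the choice.

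The 250 bases before the annotated start of leading genes are shown because they are the sequences next to the largest differences, and because 3 short motifs could be looked for in them. The first 2 genes of each direction were fixed by rule. The 3 others are the leading genes that held a match, added after the matches were known. Sequences are from RefSeq (GRCm38.p6), 1 start per gene, 5′ to 3′ on the gene's strand, with matches in capitals. That start can differ from the gene coordinates used elsewhere here. The windows of Lpo, Hemgn and Atp8b4 lie inside those coordinates, and that of Adcy4 overlaps them. The first 4 windows hold no match. They are chr10:127621149-127621398 for Lrp1, chr11:87826115-87826364 for Lpo, chr4:46404184-46404433 for Hemgn and chr11:44470549-44470798 for Ublcp1, all on the minus strand.
Lrp1: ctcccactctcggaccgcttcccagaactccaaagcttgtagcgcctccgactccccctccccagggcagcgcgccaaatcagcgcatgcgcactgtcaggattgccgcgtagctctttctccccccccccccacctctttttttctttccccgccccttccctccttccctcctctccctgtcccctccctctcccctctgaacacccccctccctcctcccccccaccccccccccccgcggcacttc
Lpo: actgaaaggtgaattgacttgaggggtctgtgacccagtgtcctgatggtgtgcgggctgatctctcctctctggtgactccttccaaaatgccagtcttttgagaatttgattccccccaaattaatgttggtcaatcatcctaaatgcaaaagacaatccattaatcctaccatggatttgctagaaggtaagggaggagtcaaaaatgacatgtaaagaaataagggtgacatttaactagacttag
Hemgn: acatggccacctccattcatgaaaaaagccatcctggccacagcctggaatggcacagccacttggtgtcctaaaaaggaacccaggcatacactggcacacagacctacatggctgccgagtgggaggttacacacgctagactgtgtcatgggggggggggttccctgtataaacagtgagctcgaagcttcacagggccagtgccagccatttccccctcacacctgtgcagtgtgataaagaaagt
Ublcp1: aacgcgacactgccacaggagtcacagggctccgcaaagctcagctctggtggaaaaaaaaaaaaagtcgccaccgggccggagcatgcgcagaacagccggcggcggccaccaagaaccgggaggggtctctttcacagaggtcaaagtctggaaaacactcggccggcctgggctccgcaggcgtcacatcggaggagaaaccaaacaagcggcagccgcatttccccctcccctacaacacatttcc

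Adcy4 (chr14:55784073-55784322), C3 (chr17:57228137-57228386) and Atp8b4 (chr2:126491554-126491803), also on the minus strand, hold 1 match each. The capitals mark the GATA motif in Adcy4, the C/EBP motif in C3 and the ETS motif in Atp8b4.
Adcy4: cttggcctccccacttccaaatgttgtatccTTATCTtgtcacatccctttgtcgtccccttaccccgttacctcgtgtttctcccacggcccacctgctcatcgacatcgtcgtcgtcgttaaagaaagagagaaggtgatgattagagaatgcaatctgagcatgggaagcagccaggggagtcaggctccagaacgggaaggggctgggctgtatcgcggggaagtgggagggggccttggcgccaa
C3: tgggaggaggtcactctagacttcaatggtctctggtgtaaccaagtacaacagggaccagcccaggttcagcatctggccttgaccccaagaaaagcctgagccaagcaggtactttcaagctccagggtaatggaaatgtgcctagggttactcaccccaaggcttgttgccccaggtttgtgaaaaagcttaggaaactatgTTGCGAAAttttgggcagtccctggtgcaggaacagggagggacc
Atp8b4: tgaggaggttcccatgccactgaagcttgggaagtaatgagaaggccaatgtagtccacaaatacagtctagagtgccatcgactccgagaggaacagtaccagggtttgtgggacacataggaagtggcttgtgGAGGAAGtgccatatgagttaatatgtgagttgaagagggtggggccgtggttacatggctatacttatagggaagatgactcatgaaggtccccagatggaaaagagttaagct

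Of the leading genes with a window in the table, 3 of 10 higher and 0 of 7 lower genes held any of the 3 motifs, which were chosen after the values were seen. Both strands were searched, and no motif contains another. The letters AGATAA stood for factors of the GATA family. ETS factors such as PU.1 were represented by GAGGAAG. C/EBP factors were represented by TTGCNNAA. Over the 5780 members with a window, GAGGAAG was found in 10.4%, against 14% of higher and 11.3% of lower members, and 10.4% of all 27025 windows in the table. Without partner genes it was found in 17.3% of higher and 11.9% of lower members. The share over all members without a partner was not counted, and the 10.4% includes genes with a partner. AGATAA was found in 5.83% of members, 6.52% of higher and 6.82% of lower members, and in 10.3% of all windows. TTGCNNAA was found in 7.27%, 7.99% and 8.08%, and in 9.55% of all windows. These shares are descriptions without a test, and a match is not a binding site.

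The marker of the sort itself was low in depth but in the labelled direction. Csf1r had 0, 2 and 0 reads in CMP replicates 1 to 3 and 15, 8 and 4 reads in CD115plusGMP replicates 1 to 3. It was at 0 in CMP replicates 1 and 3, and the populations did not overlap. Csf1r (partner Hmgxb3) was 23.4-fold higher (95% counting interval 5.88 to 203, adjusted p = 8.99e-04), with a fitted log2 difference of 4.10 that was 4.86 without CMP replicate 2. Beside Csf1r, a set of surface marker genes, here called sort genes, was chosen for description, and no label gives it as the sorting panel. Of these, Cd24a, a surface glycoprotein, and Eng, the co-receptor endoglin, fell. Cd24a stood at 6.35, 6.47 and 6.81 log2 CPM in CMP replicates 1 to 3 and at 3.90, 3.08 and 3.84 log2 CPM in CD115plusGMP replicates 1 to 3. Cd24a fell by 2.94 ± 0.31 (adjusted p = 1.56e-06). Eng stood at 7.28, 7.09 and 6.82 log2 CPM in CMP replicates 1 to 3 and at 5.21, 5.20 and 5.60 log2 CPM in CD115plusGMP replicates 1 to 3. Eng (partner Fpgs) fell by 1.73 ± 0.22 (adjusted p = 1.37e-05). All CMP libraries were above all CD115plusGMP libraries for both genes. Cxcr4, the receptor for CXCL12, rose by 2.58 ± 0.52 (adjusted p = 0.00116). Ly6c2 was 22.5-fold higher (95% counting interval 7.16 to 114, adjusted p = 4.72e-04), and Cd48 was 10.4-fold higher (95% counting interval 3.04 to 55.1, adjusted p = 0.00588), both surface glycoproteins of leukocytes. Itgam, the integrin chain CD11b, rose by 2.24 ± 0.76 (adjusted p = 0.0341), a difference that was 2.03 without CMP replicate 2 (adjusted p = 0.11, not called), 1.91 without CMP replicate 3 (adjusted p = 0.127, not called), 1.88 without CD115plusGMP replicate 1 (adjusted p = 0.114, not called) and 2.14 without CD115plusGMP replicate 3 (adjusted p = 0.0832, not called). For 3 other genes no call was made. Kit differed by -0.59 ± 0.68 (adjusted p = 0.551, not called), Cd34 (partner Gm16897) differed by 2.04 ± 0.76 (adjusted p = 0.0536, not called) and Spn differed by 0.71 ± 0.24 (adjusted p = 0.0384, not called). Fcgr3, with 1 read in CMP and 35 in CD115plusGMP, did not pass the level in 3 libraries, and neither did Flt3, with 12 and 2 reads, nor Itga2b, with 15 and 2.

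Receptors for soluble signals were mostly higher in CD115plusGMP, beside 13.4% called higher and 9.74% called lower among all members. Of the chemokine and chemoattractant receptors with a member tested, 7 of 9 rose and 0 fell, with a median log2 difference of 2.58 (2.67 from read ratios held at their bounds). Of these 7, 3 passed the level in 1 population only. Ccr2 guides monocytes out of the marrow. Ccr2 stood at 2.38, 0.51 and 1.49 log2 CPM in CMP replicates 1 to 3 and at 6.54, 6.25 and 6.08 log2 CPM in CD115plusGMP replicates 1 to 3. The lowest CD115plusGMP value was above the highest CMP value. Ccr2 rose by 4.83 ± 0.49 (adjusted p = 9.69e-07). Ptgir, the prostacyclin receptor, was at least 49.7-fold higher (adjusted p = 6.19e-07). Ltb4r2, a leukotriene B4 receptor, was 22.5-fold higher (95% counting interval 3.39 to 958, adjusted p = 0.00207), and Ackr2, a scavenging chemokine receptor, rose by 2.82 ± 0.69 (adjusted p = 0.00499). Among cytokine and growth factor receptors, 6 of 16 rose and 0 fell, with a median log2 difference of 1.03 (1.18 from read ratios held at their bounds). Of these 6, 5 passed the level in 1 population only, which the level itself favours. Over the 8 members with at least 30 reads, 2 rose and the median was 0.53. Csf2rb had 0, 0 and 0 reads in CMP replicates 1 to 3 and 13, 4 and 2 reads in CD115plusGMP replicates 1 to 3. Csf2rb, the beta chain shared by the GM-CSF, IL-3 and IL-5 receptors, was at least 11-fold higher (adjusted p = 3.93e-04). Il6st, the signal-transducing chain of the IL-6 family, was 17.3-fold higher (95% counting interval 5.39 to 88.8, adjusted p = 9.43e-04), with a fitted log2 difference of 3.86 that was 4.5 without CMP replicate 1 and 3.20 without CMP replicate 2. Il4ra (partner Gm44876), the IL-4 receptor chain, was at least 6.36-fold higher (adjusted p = 5.89e-04). In the TNF and TNF receptor superfamily, 5 of 8 rose and 0 fell, with a median log2 difference of 2.46 (2.33 from read ratios held at their bounds). Of these 5, 4 passed the level in 1 population only. Only 2 members of this list had at least 30 reads, and both rose. Tnfrsf1b, TNF receptor 2, was at least 15-fold higher (adjusted p = 6.13e-05). Tnfrsf21, death receptor 6, rose by 3.42 ± 0.57 (adjusted p = 2.17e-04), and Ltbr, the lymphotoxin beta receptor, was 19.1-fold higher (95% counting interval 2.77 to 821, adjusted p = 0.00228). The count for TNF superfamily genes was 3 higher without CD115plusGMP replicate 1 and 3 higher without CD115plusGMP replicate 2.

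Receptors for sugars, sialic acids, microbial products and complement followed the same direction, beside 13.4% called higher among all members. Of lectin, Siglec and paired immunoglobulin-like receptors, 7 of 12 rose and 2 fell, with a median log2 difference of 2.77 (2.89 from read ratios held at their bounds). Clec12a and Clec5a are C-type lectins of myeloid cells, and Clec7a is the beta-glucan receptor dectin-1. Clec12a had 0, 2 and 0 reads in CMP replicates 1 to 3 and 27, 7 and 8 reads in CD115plusGMP replicates 1 to 3. Clec12a was 36.4-fold higher (95% counting interval 9.47 to 310.5, adjusted p = 2.86e-04), with a fitted log2 difference of 4.62 that was 5.38 without CMP replicate 2. Clec5a was 37.3-fold higher (95% counting interval 9.71 to 318, adjusted p = 3.31e-04), with a fitted log2 difference of 4.40 that was 3.75 without CMP replicate 3. Clec7a was 27.7-fold higher (95% counting interval 8.94 to 139, adjusted p = 2.66e-04), with a fitted log2 difference of 4.37 that was 5.02 without CMP replicate 1 and 3.71 without CMP replicate 2. Sirpa binds CD47 and restrains engulfment. Sirpa stood at 0.79, 1.73 and 1.49 log2 CPM in CMP replicates 1 to 3 and at 5.05, 4.67 and 5.14 log2 CPM in CD115plusGMP replicates 1 to 3. The populations did not overlap, and Sirpa rose by 3.61 ± 0.55 (adjusted p = 7.74e-05). For pattern recognition receptors and adaptors, 6 of 12 rose and 0 fell, with a median log2 difference of 1.85 (1.69 from read ratios held at their bounds). Casp1, the inflammasome protease, rose by 3.25 ± 0.83 (adjusted p = 0.00674), a difference that was 4.03 without CMP replicate 2 and 2.33 without CMP replicate 3. The count for pattern recognition genes was 3 higher without CMP replicate 1 and 3 higher without CD115plusGMP replicate 1. In the group of Fc receptors, complement and scavenger receptors, 6 of 14 rose and 1 fell, with a median log2 difference of 0.80 (0.80 from read ratios held at their bounds), with Lrp1 and C3 among those that rose. Cfp, properdin, was 26-fold higher (95% counting interval 8.35 to 131, adjusted p = 3.89e-04), with a fitted log2 difference of 4.56 that was 5.37 without CMP replicate 3. Fcer1g, the signalling chain of Fc receptors, rose by 3.19 ± 0.80 (adjusted p = 0.00579), a difference that was 2.45 without CMP replicate 2. Of the distinct called members of these 3 groups, 11 passed the level in 1 population only.

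Adhesion molecules and adhesion and orphan G-protein-coupled receptors were also called higher more often than lower, beside 13.4% and 9.74% among all members. For integrins and adhesion molecules, 9 of 22 rose and 3 fell, with a median log2 difference of 0.97 (0.92 from read ratios held at their bounds). Emb (partner Gm17509), embigin, rose by 5.29 ± 0.45 (adjusted p = 1.14e-07). Pecam1, CD31, rose by 3.36 ± 0.72 (adjusted p = 0.00189), a difference that was 4.18 without CD115plusGMP replicate 3, and Itgb7, an integrin beta chain, rose by 2.96 ± 0.78 (adjusted p = 0.00853), a difference that was 2.24 without CMP replicate 1. Among adhesion and orphan G-protein-coupled receptors, 10 of 16 rose and 1 fell, with a median log2 difference of 1.96 (1.82 from read ratios held at their bounds). Adgrg3 stood at 3.85, 3.31 and 4.66 log2 CPM in CMP replicates 1 to 3 and at 7.22, 6.83 and 7.19 log2 CPM in CD115plusGMP replicates 1 to 3. All CD115plusGMP libraries were above all CMP libraries. Adgrg3 rose by 3.14 ± 0.32 (adjusted p = 8.41e-07), while Adgrg2 (partner Gm15241) was at least 8.84-fold lower (adjusted p = 1.89e-04). The semaphorin, plexin, ephrin and netrin group had 8 members tested, of which 2 rose and 1 fell. Ntn4, a secreted netrin, was at least 13.3-fold lower (adjusted p = 3.85e-05), and Epha1 (partner Zyx), an ephrin receptor, rose by 2.62 ± 0.34 (adjusted p = 1.42e-05). For TGF-beta and BMP signalling, 3 of 13 rose and 1 fell, with a median log2 difference of 0.93 (1.02 from read ratios held at their bounds). Acvr1b, an activin receptor, was 32.9-fold higher (95% counting interval 5.24 to 1369, adjusted p = 5.19e-04), and Acvrl1 (partner Gm16031), a receptor that pairs with endoglin, was at least 20.2-fold higher (adjusted p = 2.23e-04), with a fitted log2 difference of 4.93 that was 4.20 without CD115plusGMP replicate 2 and 5.74 without CD115plusGMP replicate 3. Notch signalling members were split, with 3 of 12 higher and 2 lower. Notch4, a Notch receptor, rose by 2.82 ± 0.68 (adjusted p = 0.00453), and Dtx4, a ubiquitin ligase of the pathway, rose by 2.10 ± 0.52 (adjusted p = 0.00508).

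**Figure D3:**
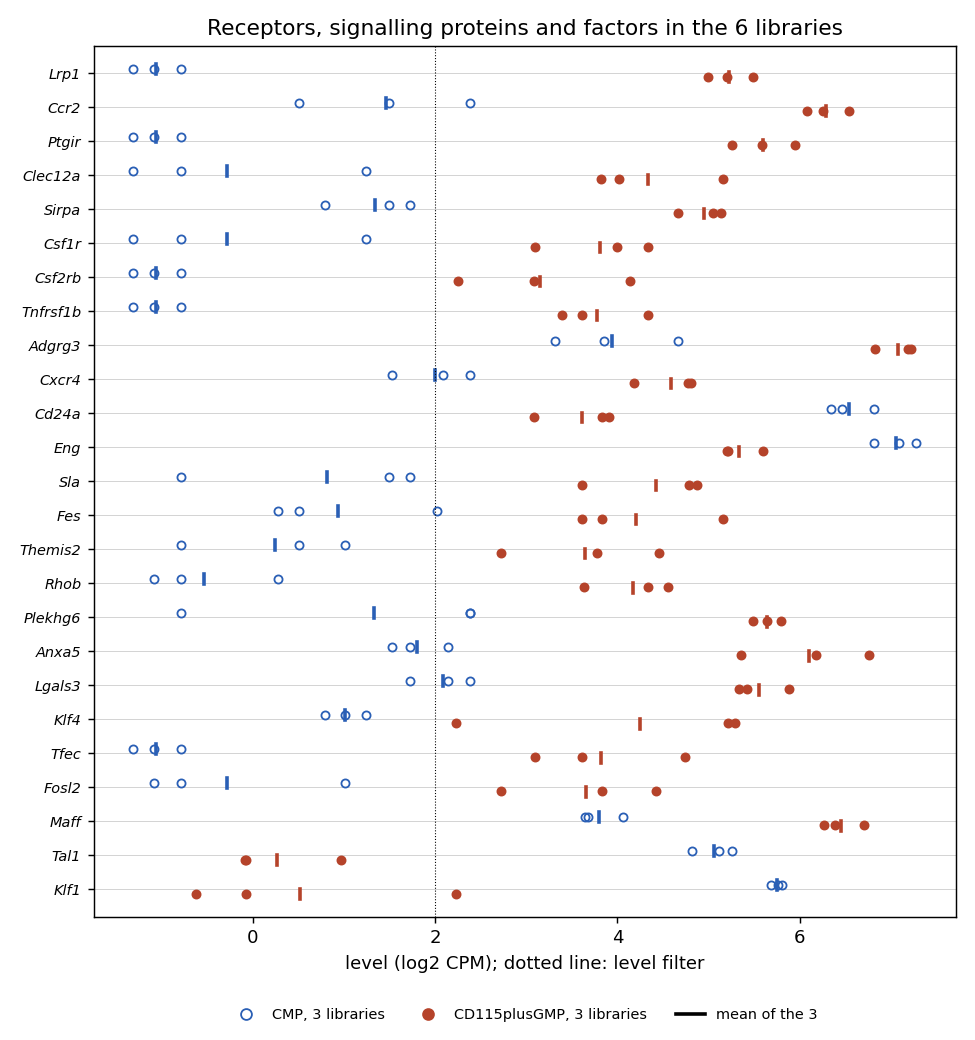
Level in log2 CPM of named receptors, signalling proteins and transcription factors, 1 point per library (open blue, CMP; filled red, CD115plusGMP) with ticks at the mean of 3. Cd24a, Eng, Tal1 and Klf1 are higher in CMP and the other genes shown are higher in CD115plusGMP.

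Inside the cell, kinases and adaptors that couple immune receptors to their targets were called higher in CD115plusGMP more often than all members together. Of cytoplasmic tyrosine kinases and immune adaptors, 15 of 30 rose and 0 fell, with a median log2 difference of 1.60 (1.44 from read ratios held at their bounds), beside 13.4% called higher among all members. Sla encodes an adaptor that dampens receptor signalling, and Fes a myeloid tyrosine kinase. Sla stood at -0.79, 1.73 and 1.49 log2 CPM in CMP replicates 1 to 3 and at 4.87, 3.61 and 4.79 log2 CPM in CD115plusGMP replicates 1 to 3. Fes stood at 2.02, 0.51 and 0.27 log2 CPM in CMP replicates 1 to 3 and at 5.16, 3.61 and 3.84 log2 CPM in CD115plusGMP replicates 1 to 3. Neither gene overlapped between the populations. Sla rose by 3.61 ± 0.75 (adjusted p = 0.00143), a difference that was 2.81 without CMP replicate 1. Fes rose by 3.27 ± 0.71 (adjusted p = 0.00202). Themis2, a scaffold of myeloid and B cells, was 13.9-fold higher (95% counting interval 4.21 to 72, adjusted p = 0.0026). Sh3bp2, an adaptor of tyrosine kinases, was 9.82-fold higher (95% counting interval 2.84 to 52.3, adjusted p = 0.00421). For MAP kinase and receptor kinase feedback genes, 8 of 26 rose and 1 fell, with a median log2 difference of 0.58 (0.65 from read ratios held at their bounds). Rasa3, a Ras GTPase activator, rose by 3.11 ± 0.87 (adjusted p = 0.0116), a difference that was 2.06 without CMP replicate 2, 3.90 without CMP replicate 3 and 2.61 without CD115plusGMP replicate 1 (adjusted p = 0.0844, not called). The count for MAP kinase genes was 5 higher without CMP replicate 1 and 5 higher without CD115plusGMP replicate 1. JAK-STAT and SOCS genes gave 4 higher and 0 lower of 21. Ptpn6 (partner Gm20531), the phosphatase SHP-1, rose by 1.48 ± 0.42 (adjusted p = 0.0119), a difference that was 1.14 without CMP replicate 1 (adjusted p = 0.0716, not called) and 1.08 without CD115plusGMP replicate 1 (adjusted p = 0.0817, not called). The count for JAK-STAT genes was 1 higher without CMP replicate 1, 1 higher without CD115plusGMP replicate 1 and 3 lower without CD115plusGMP replicate 1. The direction of these calls thus turned without CD115plusGMP replicate 1. In the NF-kappa B pathway, 2 of 20 rose and 2 fell, with a median log2 difference of 0.46 (0.47 from read ratios held at their bounds). The share that rose did not exceed the 13.4% of all members. Over the 10 members with at least 30 reads, 0 rose and 2 fell, and the median turned to -0.06. Ikbke (partner Gm28914), a kinase, was 20.8-fold higher (95% counting interval 3.08 to 889, adjusted p = 0.00453), and Tab3, an adaptor of TAK1, was 11.9-fold lower (95% counting interval 3.89 to 59.4, adjusted p = 0.00237), with a fitted log2 difference of -3.17 that was -3.76 without CD115plusGMP replicate 2.

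Lipid mediator enzymes and interferon-responsive genes added single large differences, beside 13.4% called higher and 9.74% called lower among all members. Lta4h makes leukotriene B4. Lta4h stood at 3.30, 4.05 and 2.77 log2 CPM in CMP replicates 1 to 3 and at 6.60, 5.64 and 6.27 log2 CPM in CD115plusGMP replicates 1 to 3. Lta4h rose by 2.80 ± 0.38 (adjusted p = 2.59e-05). Alox5ap (partner Gm19719), the activator of 5-lipoxygenase in the same pathway, rose by 2.87 ± 0.81 (adjusted p = 0.013), a difference that was 2.08 without CMP replicate 2 (adjusted p = 0.0723, not called) and 2.42 without CD115plusGMP replicate 1 (adjusted p = 0.0703, not called). Of prostanoid, leukotriene and phospholipase enzymes, 4 of 10 rose and 1 fell, with a median log2 difference of 0.63 (0.62 from read ratios held at their bounds). The count for lipid mediator enzymes was 2 higher without CMP replicate 2 and 2 higher without CD115plusGMP replicate 1. The median turned to -0.26 over members with at least 30 reads and to -0.34 over those without a partner. For interferon-stimulated genes, 6 of 29 rose and 1 fell, with a median log2 difference of 0.31 (0.25 from read ratios held at their bounds), and the median turned to -0.06 with reads scaled to genes with a symbol. Ifi204, a DNA sensor, was at least 12.1-fold higher (adjusted p = 2.16e-04). Gbp3, a guanylate-binding protein, was 36.4-fold higher (95% counting interval 5.86 to 1506, adjusted p = 4.72e-04), whereas Isg20, an exonuclease, was at least 6.73-fold lower (adjusted p = 6.35e-04). Adenylyl cyclases moved apart, with Adcy4 higher and Adcy6 lower. Adcy6 (partner Gm29331) was at least 6.35-fold lower (adjusted p = 8.15e-04). Of protein tyrosine phosphatases, 4 of 15 rose and 1 fell, with a median log2 difference of 0.46 (0.49 from read ratios held at their bounds). Ptpro, a receptor-type phosphatase, was 15.6-fold higher (95% counting interval 2.16 to 684, adjusted p = 0.00675), with a fitted log2 difference of 3.04 that was 3.70 without CMP replicate 1, and Ptpn18 (partner Gm28417), a cytoplasmic one, rose by 1.95 ± 0.24 (adjusted p = 7.57e-06). The count for tyrosine phosphatases was 2 higher without CMP replicate 1, 2 higher without CD115plusGMP replicate 1 and 3 lower without CD115plusGMP replicate 1.

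Transcription factor families held few calls each, beside 13.4% called higher and 9.74% called lower among all members. Kruppel-like factors went both ways, with 3 of 11 higher and 1 lower. Klf1 had 44, 57 and 69 reads in CMP replicates 1 to 3 and 0, 2 and 0 reads in CD115plusGMP replicates 1 to 3. Klf1, the erythroid member, was 49-fold lower (95% counting interval 13.4 to 408, adjusted p = 1.59e-05), with a fitted log2 difference of -5.24 that was -6.10 without CD115plusGMP replicate 2. Klf4 stood at 0.79, 1.24 and 1.01 log2 CPM in CMP replicates 1 to 3 and at 5.21, 2.23 and 5.29 log2 CPM in CD115plusGMP replicates 1 to 3. Klf4, a factor of monocyte differentiation, rose by 3.23 ± 0.79 (adjusted p = 0.00466), a difference that was 4.23 without CD115plusGMP replicate 2, and Klf6 rose by 3.11 ± 0.77 (adjusted p = 0.00513), a difference that was 2.45 without CMP replicate 1 and 3.78 without CMP replicate 3. CD115plusGMP replicate 2 was the lowest of its population for Klf4 and the highest for Klf1. Of basic helix-loop-helix and Id factors, 3 of 21 rose and 4 fell. Tal1 had 24, 36 and 47 reads in CMP replicates 1 to 3 and 1, 0 and 0 reads in CD115plusGMP replicates 1 to 3. Tal1 was 61.7-fold lower (95% counting interval 10.8 to 2460.3, adjusted p = 1.60e-05). Ldb1 (partner Pprc1), a partner protein of TAL1, fell by 2.16 ± 0.41 (adjusted p = 6.43e-04). Tfec was at least 17.3-fold higher (adjusted p = 8.17e-05) and Tfeb was 15.6-fold higher (95% counting interval 2.16 to 684, adjusted p = 0.0049), both of the family that drives lysosomal genes. This list had more higher than lower calls, 3 against 2 with 9 libraries sharing the spread and 5 against 4 with 2 reads added. For bZIP factors, 3 of 24 rose and 0 fell, with a median log2 difference of 0.51 (0.40 from read ratios held at their bounds). Maff stood at 4.07, 3.68 and 3.64 log2 CPM in CMP replicates 1 to 3 and at 6.71, 6.39 and 6.27 log2 CPM in CD115plusGMP replicates 1 to 3. The populations did not overlap for this small Maf protein. Maff rose by 2.66 ± 0.29 (adjusted p = 1.79e-06). Fosl2 was 22.5-fold higher (95% counting interval 5.64 to 196, adjusted p = 0.00114), with a fitted log2 difference of 3.95 that was 4.59 without CMP replicate 3 and Jun (partner Junos) was 13.9-fold higher (95% counting interval 3.26 to 124, adjusted p = 0.00362), with a fitted log2 difference of 3.27 that was 2.61 without CMP replicate 3, both AP-1 subunits. The list of interferon regulatory factors also holds IRF2-binding proteins. Of its 8 members, 3 rose and 0 fell, with a median log2 difference of 1.06 (1.17 from read ratios held at their bounds). Differences were above 0 for 7 of the 8, beside 3528 of 7331 members. Irf8, a factor of monocyte and dendritic cell fate, was the only called member that is itself such a factor. Irf8 rose by 1.86 ± 0.38 (adjusted p = 0.00134). Irf2bpl was 15.6-fold higher (95% counting interval 2.16 to 684, adjusted p = 0.00646). Irf2bp2 (partner Gm26759) rose by 1.46 ± 0.42 (adjusted p = 0.0138), a difference that was 1.18 without CD115plusGMP replicate 1 (adjusted p = 0.061, not called). Among ETS and RUNX factors, 2 of 15 rose and 0 fell, with a median log2 difference of 0.80 (0.79 from read ratios held at their bounds). Here 12 of the 15 differences were above 0, beside the same 3528 of 7331 members. For basic helix-loop-helix, bZIP, and ETS and RUNX factors, the share that rose was close to that of all members. Cbfb, the RUNX partner, rose by 2.90 ± 0.63 (adjusted p = 0.00214). Fli1 differed by 1.73 ± 0.69 (adjusted p = 0.0724, not called) and Elf4 differed by 1.47 ± 0.55 (adjusted p = 0.0554, not called). The count for ETS and RUNX factors was 4 higher without CD115plusGMP replicate 2. Hoxa10, a homeobox factor of early progenitors, was 9.81-fold lower (95% counting interval 3.17 to 49.1, adjusted p = 0.00293). Vdr, the vitamin D receptor, was 8.46-fold lower (95% counting interval 2.71 to 42.6, adjusted p = 0.0069), while Nr2f6 (partner Ocel1), another nuclear receptor, rose by 1.32 ± 0.27 (adjusted p = 0.00132).

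Lysosomal genes were called higher in CD115plusGMP more often than all members together. Of lysosomal enzymes and membrane proteins, 19 of 46 rose and 3 fell, with a median log2 difference of 0.99 (1.06 from read ratios held at their bounds). The count for lysosomal genes was 12 higher without CD115plusGMP replicate 1. Ctsh, cathepsin H, rose by 4.58 ± 0.76 (adjusted p = 1.89e-04), a difference that was 5.26 without CMP replicate 1 and 3.59 without CMP replicate 3, and Sort1 (partner Gm12523), the sorting receptor sortilin, rose by 4.66 ± 0.91 (adjusted p = 8.24e-04), a difference that was 4.06 without CMP replicate 1, 3.92 without CMP replicate 2 and 6.0 without CMP replicate 3. Ctse, described above, was the largest decrease of the list. Npc2 carries cholesterol out of lysosomes. Npc2 stood at 6.05, 5.95 and 6.20 log2 CPM in CMP replicates 1 to 3 and at 8.62, 8.24 and 8.33 log2 CPM in CD115plusGMP replicates 1 to 3. The populations stood far apart relative to their spread. Npc2 rose by 2.32 ± 0.17 (adjusted p = 1.57e-08). V-ATPase subunits, which acidify the lysosome, had a median of 1.07 over 13 members, with 0 higher and 1 lower call. Atp6v0a4 (partner Tmem213) was at least 2.5-fold lower (adjusted p = 0.0155), with a fitted log2 difference of -2.42 that was -2.31 without CMP replicate 3 (adjusted p = 0.0559, not called). The call majority turned to 2 higher and 1 lower with 15 libraries sharing the spread or with voom weights, to 2 and 0 with 2 reads added and to 1 and 0 without CMP replicate 3. For Rab GTPases, 5 of 29 rose and 0 fell, beside 13.4% called higher among all members. The median log2 difference was 0.60 (0.55 from read ratios held at their bounds). All 5 that rose passed the level in 1 population only, which the level itself favours. Over the 18 members with at least 30 reads, 3 rose and the median was 0.35. Rab27a stood at 1.53, 1.24 and 0.27 log2 CPM in CMP replicates 1 to 3 and at 5.72, 4.87 and 4.97 log2 CPM in CD115plusGMP replicates 1 to 3. Rab27a, which docks secretory granules, rose by 4.17 ± 0.58 (adjusted p = 3.18e-05). Rab3d was at least 10.4-fold higher (adjusted p = 2.28e-04) and Rab44 rose by 4.07 ± 0.77 (adjusted p = 6.24e-04), a difference that was 3.29 without CMP replicate 2, likewise tied to secretion. Vesicle fusion proteins had 2 of 26 higher and 4 lower. Stx2 was 13.1-fold lower (95% counting interval 4.29 to 65, adjusted p = 6.61e-04), with a fitted log2 difference of -3.78 that was -4.54 without CD115plusGMP replicate 1 and Vamp4 rose by 2.43 ± 0.56 (adjusted p = 0.0033). Of ER protein folding genes, 7 of 52 rose and 0 fell, with a median log2 difference of 0.41 (0.49 from read ratios held at their bounds). The share that rose was close to the 13.4% of all members. Pdia6 (partner Atp6v1c2), a disulfide isomerase, rose by 1.96 ± 0.31 (adjusted p = 1.43e-04). The count for ER folding genes was 4 higher without CMP replicate 2, 2 higher without CD115plusGMP replicate 1, 11 higher without CD115plusGMP replicate 2 and 11 higher without CD115plusGMP replicate 3.

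Genes of the actin cytoskeleton and of its small GTPase switches were higher in CD115plusGMP more often than all members together. Of actin cytoskeleton and related small GTPase genes, 27 of 79 rose and 4 fell, with a median log2 difference of 0.78 (0.95 from read ratios held at their bounds). Rhob stood at -0.79, -1.08 and 0.27 log2 CPM in CMP replicates 1 to 3 and at 4.33, 4.56 and 3.63 log2 CPM in CD115plusGMP replicates 1 to 3. Rhob, an endosomal small GTPase, was 57.2-fold higher (95% counting interval 9.58 to 2327, adjusted p = 9.31e-05). Myo1f, an unconventional myosin of leukocytes, rose by 4.01 ± 0.77 (adjusted p = 7.31e-04), a difference that was 3.21 without CMP replicate 2 and 4.68 without CMP replicate 3, and Fmnl3, a formin, was at least 6.93-fold higher (adjusted p = 6.41e-04). In the other direction, Rhof (partner Tmem120b) was 20.2-fold lower (95% counting interval 3.39 to 819.9, adjusted p = 0.00189). Exchange factors and activators of small GTPases moved likewise, and 20 of 45 rose and 2 fell, with a median log2 difference of 1.33 (1.52 from read ratios held at their bounds). Plekhg6 stood at -0.79, 2.38 and 2.39 log2 CPM in CMP replicates 1 to 3 and at 5.65, 5.79 and 5.48 log2 CPM in CD115plusGMP replicates 1 to 3. The populations did not overlap. Plekhg6, an exchange factor, rose by 4.32 ± 0.71 (adjusted p = 1.72e-04), a difference that was 3.26 without CMP replicate 1. Arhgap31, a GTPase activator, was at least 7.51-fold higher (adjusted p = 3.36e-04). The count for small GTPase regulators was 13 higher without CD115plusGMP replicate 1. Annexins, S100 proteins and galectins bind calcium, membranes or sugars, and 9 of 18 rose and 1 fell, with a median log2 difference of 1.41 (1.77 from read ratios held at their bounds). Anxa5 stood at 1.53, 1.73 and 2.15 log2 CPM in CMP replicates 1 to 3 and at 6.76, 6.18 and 5.36 log2 CPM in CD115plusGMP replicates 1 to 3. Lgals3 stood at 2.38, 1.73 and 2.15 log2 CPM in CMP replicates 1 to 3 and at 5.89, 5.34 and 5.42 log2 CPM in CD115plusGMP replicates 1 to 3. For both genes every CD115plusGMP library was above every CMP library. Anxa5 rose by 4.30 ± 0.46 (adjusted p = 1.5e-06). Anxa2 (partner Gm16144) rose by 3.99 ± 0.44 (adjusted p = 2.23e-06). Lgals3 rose by 3.46 ± 0.44 (adjusted p = 1.08e-05). Anxa3 was at least 8.09-fold higher (adjusted p = 2.80e-04). Protease inhibitors were few, and 5 of 6 rose and 0 fell, with a median log2 difference of 2.64 (2.57 from read ratios held at their bounds). Serpinb1a, an inhibitor of neutrophil proteases, rose by 4.56 ± 0.90 (adjusted p = 9.43e-04), a difference that was 3.84 without CMP replicate 2 and 5.85 without CMP replicate 3, and Cst7, cystatin F, was 12.1-fold higher (95% counting interval 2.79 to 110.0, adjusted p = 0.00339). Nuclear lamins moved apart. Lmna had 12, 23 and 24 reads in CMP replicates 1 to 3 and 0, 0 and 0 reads in CD115plusGMP replicates 1 to 3. Lmna was at least 11.3-fold lower (adjusted p = 8.67e-05), whereas Lmnb2 rose by 2.19 ± 0.52 (adjusted p = 0.00371). Tubulins and microtubule regulators had 3 of 33 higher and 2 lower, a majority that turned to 2 and 5 with reads scaled to genes with a symbol. Map4 rose by 2.56 ± 0.67 (adjusted p = 0.00786) and Map7d1 rose by 1.88 ± 0.44 (adjusted p = 0.00338), both microtubule-binding proteins.

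**Figure D4:**
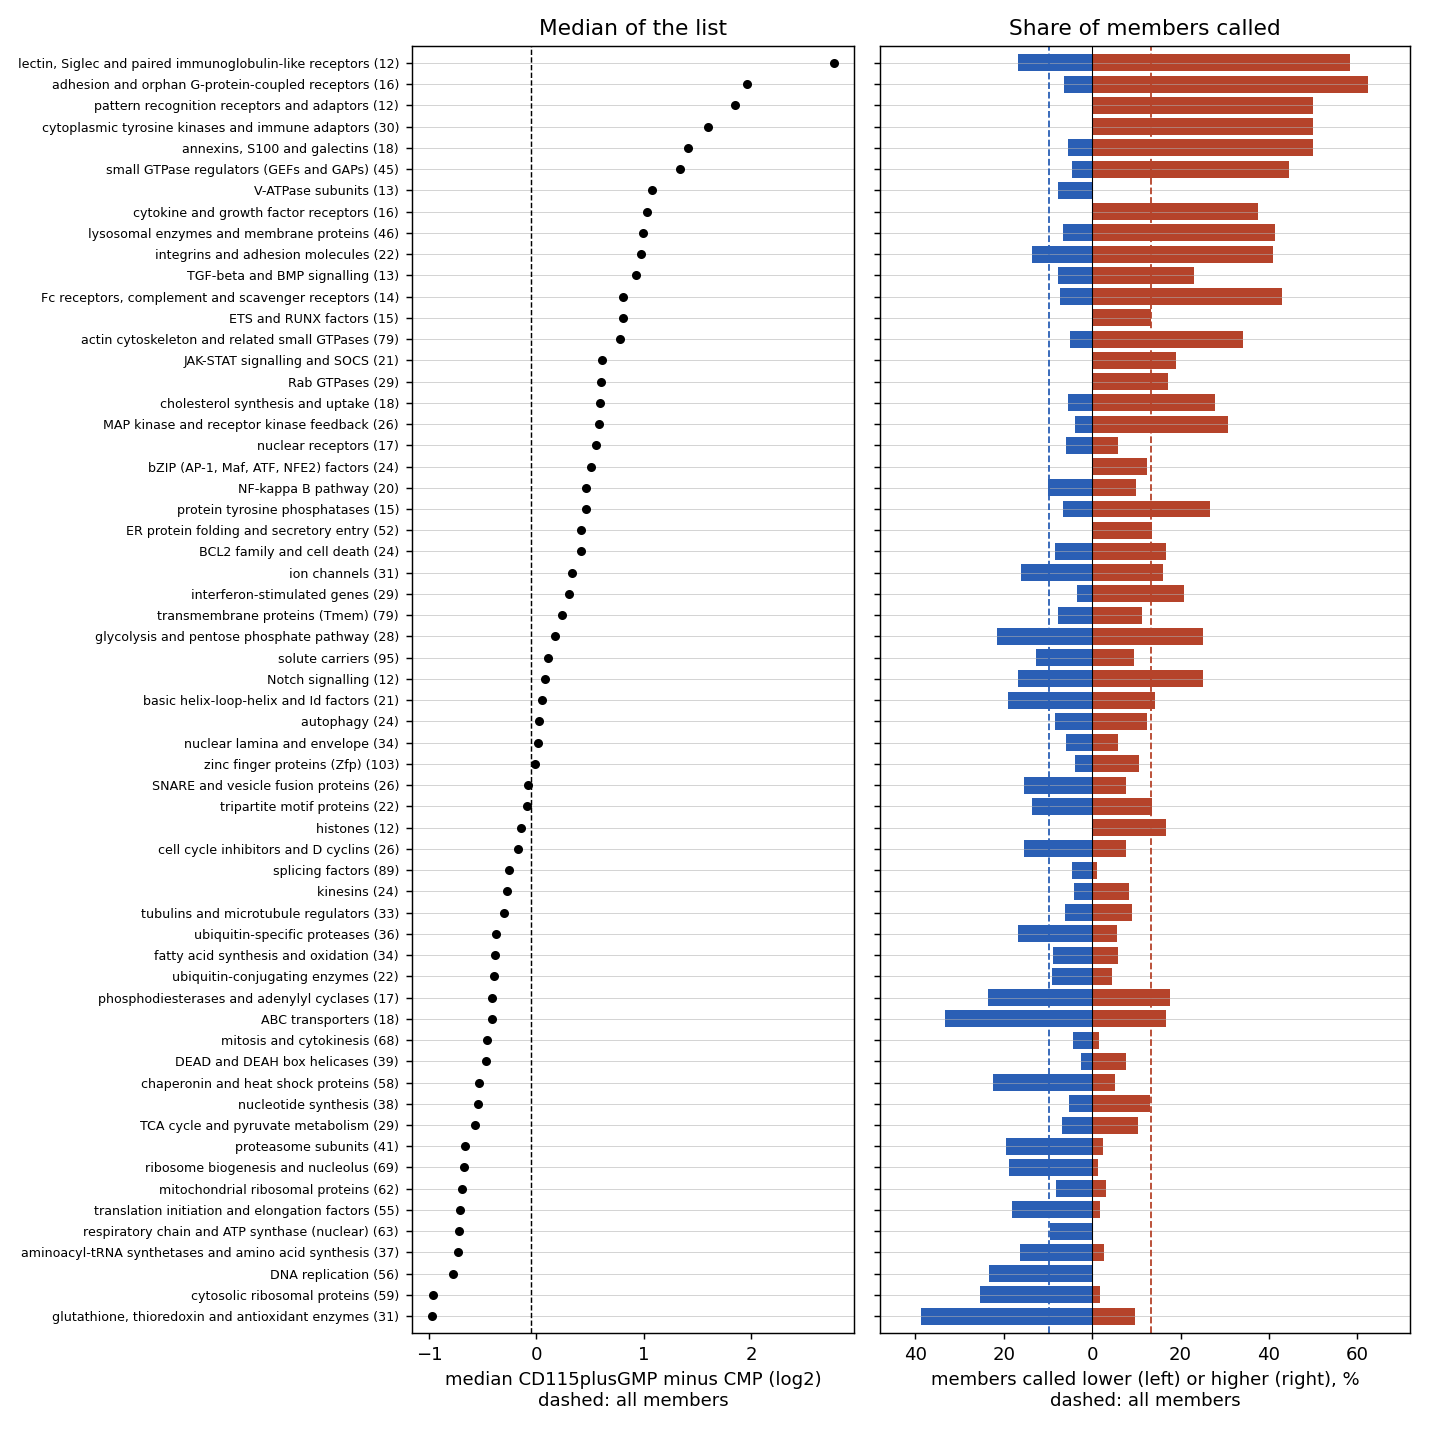
Median log2 difference (left) and share of members called (right, percent; red higher, blue lower in CD115plusGMP) for each described list with at least 12 members tested, the number in brackets. Dashed lines give all members: a median of -0.05, 13.4% higher and 9.74% lower. Receptor, kinase, lysosome and actin lists lie above and ribosome, replication and antioxidant lists below. The side with more calls turned with a setting or without 1 library for several lists near the middle.

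Some lists stand in the plot of list medians alone, and the side with more calls turned for these too. DEAD and DEAH box helicases, which unwind RNA, had 3 higher and 1 lower call of 39. The calls were 0 and 8 with reads scaled to genes with a symbol, 1 and 4 after quantile normalization, 1 and 2 without CMP replicate 1, 2 and 4 without CD115plusGMP replicate 1 and 0 and 1 over members without a partner. Transmembrane proteins named Tmem had 9 higher and 6 lower of 79, against 8 and 10 with reads scaled to genes with a symbol and 3 and 5 without a partner. Kinesins, the motors of microtubules, had 2 and 1 of 24, against 1 and 4 with that scaling and 2 and 4 with 15 libraries sharing the spread. Autophagy genes had 3 and 2 of 24, against 1 and 4 with that scaling and 2 and 4 without CD115plusGMP replicate 1. Phosphodiesterases and adenylyl cyclases, which set cyclic nucleotide levels, had 3 higher and 4 lower of 17. They had 2 and 1 with 9 libraries sharing the spread, and also without CMP replicate 2, CMP replicate 3 or CD115plusGMP replicate 2. Ubiquitin-conjugating enzymes had 1 higher and 2 lower of 22, against 1 and 0 with at least 30 reads or without CMP replicate 3 and 2 and 0 with 2 reads added.

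Reads assigned to genes of the machinery that makes proteins were lower in CD115plusGMP, as a shift of many members of modest size with few calls each. As said above, reads in all 6 libraries may come from the opposite strand, so they may not measure the transcripts themselves. That limit holds equally for the lists with more higher calls. Of 87 cytosolic ribosomal protein genes, 59 passed the level. Of cytosolic ribosomal proteins, 1 of 59 rose and 15 fell, with a median log2 difference of -0.96 (-0.83 from read ratios held at their bounds), beside 9.74% called lower among all members. The median ranged from -1.06 to -0.76 when 1 library was left out. The count for cytosolic ribosomal proteins was 7 lower without CMP replicate 2 and 9 lower without CMP replicate 3. Rplp1 stood at 5.19, 5.77 and 5.53 log2 CPM in CMP replicates 1 to 3 and at 4.66, 2.72 and 3.39 log2 CPM in CD115plusGMP replicates 1 to 3. The populations did not overlap for this stalk protein. Rplp1 fell by 1.90 ± 0.44 (adjusted p = 0.0032). For ribosome biogenesis and nucleolus, 1 of 69 rose and 13 fell, with a median log2 difference of -0.68 (-0.68 from read ratios held at their bounds). Noc2l stood at 6.35, 6.64 and 6.02 log2 CPM in CMP replicates 1 to 3 and at 4.93, 4.0 and 4.02 log2 CPM in CD115plusGMP replicates 1 to 3. Noc2l (partner Samd11), a ribosome assembly factor, fell by 2.02 ± 0.31 (adjusted p = 9.55e-05). The count for ribosome biogenesis genes was 8 lower without CMP replicate 1, 8 lower without CMP replicate 2 and 7 lower without CMP replicate 3. Of translation initiation and elongation factors, 1 of 55 rose and 10 fell, with a median log2 difference of -0.71 (-0.64 from read ratios held at their bounds). Eif3d (partner Gm17638), a subunit of initiation factor 3, fell by 2.31 ± 0.44 (adjusted p = 7.01e-04). The count for translation factors was 5 lower without CMP replicate 2, 5 lower without CMP replicate 3, 17 lower without CD115plusGMP replicate 1 and 6 lower without CD115plusGMP replicate 2. For aminoacyl-tRNA synthetases and amino acid synthesis, 1 of 37 rose and 6 fell, with a median log2 difference of -0.73 (-0.64 from read ratios held at their bounds). Hars and Gars charge histidine and glycine tRNAs. Hars (partner Hars2) fell by 2.54 ± 0.50 (adjusted p = 8.33e-04) and Gars fell by 2.21 ± 0.55 (adjusted p = 0.00528). Asns had 7, 27 and 24 reads in CMP replicates 1 to 3 and 1, 0 and 0 reads in CD115plusGMP replicates 1 to 3. Asns, asparagine synthetase, was 33.5-fold lower (95% counting interval 5.77 to 1344, adjusted p = 6.81e-04). Mthfd1, of folate metabolism, fell by 2.22 ± 0.38 (adjusted p = 2.35e-04). The count for synthetase genes was 10 lower without CD115plusGMP replicate 1.

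Mitochondrial and protein quality lists also had medians below that of all members, while the shares called lower among mitochondrial ribosomal proteins and the respiratory chain did not exceed the 9.74% of all members. Of mitochondrial ribosomal proteins, 2 of 62 rose and 5 fell, with a median log2 difference of -0.69 (-0.77 from read ratios held at their bounds). Mrps9 was 16.2-fold lower (95% counting interval 2.67 to 660.4, adjusted p = 0.00523) and Mrpl10 (partner Gm11574) rose by 2.35 ± 0.42 (adjusted p = 3.40e-04). The count for mitochondrial ribosomal proteins was 3 lower without CMP replicate 1, 1 lower without CMP replicate 2, 2 lower without CMP replicate 3 and 10 lower without CD115plusGMP replicate 1. The call majority thus turned without CMP replicate 2. For the nuclear-encoded respiratory chain and ATP synthase, 0 of 63 rose and 6 fell, with a median log2 difference of -0.72 (-0.65 from read ratios held at their bounds), with medians of -1.09 to -0.47 when 1 library was left out. Uqcrh stood at 5.68, 5.52 and 5.67 log2 CPM in CMP replicates 1 to 3 and at 4.59, 3.61 and 3.39 log2 CPM in CD115plusGMP replicates 1 to 3. Uqcrh, a complex III subunit, fell by 1.76 ± 0.36 (adjusted p = 0.00113). The count for respiratory chain genes was 2 lower without CMP replicate 2, 1 lower without CMP replicate 3 and 16 lower without CD115plusGMP replicate 1. Among proteasome subunits, 1 of 41 rose and 8 fell, with a median log2 difference of -0.66 (-0.44 from read ratios held at their bounds). Psmd9 (partner Gm26745), an assembly chaperone, fell by 2.73 ± 0.57 (adjusted p = 0.00148), while Psmb9 (partner Tap1), a subunit of the immunoproteasome, rose by 2.75 ± 0.74 (adjusted p = 0.00962), a difference that was 2.09 without CD115plusGMP replicate 1 (adjusted p = 0.0626, not called). The count for proteasome subunits was 4 lower without CMP replicate 2, 5 lower without CMP replicate 3, 15 lower without CD115plusGMP replicate 1 and 4 lower without CD115plusGMP replicate 2. Of chaperonin and heat shock proteins, 3 of 58 rose and 13 fell, with a median log2 difference of -0.53 (-0.52 from read ratios held at their bounds). Hspb2 (partner Cryab) was at least 7.51-fold higher (adjusted p = 5.97e-04). The count for chaperones was 6 lower without CMP replicate 3 and 1 higher without CD115plusGMP replicate 3. The list of glutathione, thioredoxin and antioxidant enzymes had a larger share of lower calls, where 3 of 31 rose and 12 fell, with a median log2 difference of -0.97 (-0.94 from read ratios held at their bounds). Gstm5 (partner 4933431E20Rik), a glutathione transferase, was at least 11.3-fold lower (adjusted p = 7.35e-05). Glrx5, a mitochondrial glutaredoxin of iron-sulfur cluster assembly, fell by 3.54 ± 0.64 (adjusted p = 4.46e-04), a difference that was -2.85 without CD115plusGMP replicate 2, and Gpx3, a secreted glutathione peroxidase, was 15.6-fold higher (95% counting interval 3.74 to 139, adjusted p = 0.00189), with a fitted log2 difference of 3.63 that was 4.28 without CMP replicate 3. The count for antioxidant enzymes was 7 lower without CMP replicate 3.

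DNA replication genes were lower and mitosis genes changed little in number of calls, beside 9.74% called lower among all members. Of DNA replication genes, 0 of 56 rose and 13 fell, with a median log2 difference of -0.78 (-0.65 from read ratios held at their bounds). Ccne1, cyclin E1, fell by 3.15 ± 0.68 (adjusted p = 0.00198), a difference that was -2.38 without CD115plusGMP replicate 2 and -3.79 without CD115plusGMP replicate 3, and Rfc4 (partner Eif4a2), a clamp loader subunit, was 8.84-fold lower (95% counting interval 2.84 to 44.5, adjusted p = 0.00441). The count for DNA replication genes was 8 lower without CMP replicate 2 and 8 lower without CD115plusGMP replicate 2. For mitosis and cytokinesis, 1 of 68 rose and 3 fell, with a median log2 difference of -0.46 (-0.32 from read ratios held at their bounds). Aurka stood at 4.88, 4.59 and 5.10 log2 CPM in CMP replicates 1 to 3 and at 2.84, -0.09 and 2.74 log2 CPM in CD115plusGMP replicates 1 to 3. Aurka, Aurora kinase A, fell by 3.03 ± 0.69 (adjusted p = 0.00283), a difference that was -2.07 without CD115plusGMP replicate 2. Nusap1 (partner Oip5), a spindle protein, fell by 1.04 ± 0.17 (adjusted p = 1.94e-04), a difference that was -0.95 without CD115plusGMP replicate 2 (adjusted p = 6.46e-04, not called). The count for mitosis genes was 9 lower without CD115plusGMP replicate 1. Cell cycle inhibitors and D cyclins had 2 of 26 higher and 4 lower. E2f4 stood at 5.44, 5.43 and 5.61 log2 CPM in CMP replicates 1 to 3 and at 4.24, 3.08 and 3.63 log2 CPM in CD115plusGMP replicates 1 to 3. E2f4, a factor of quiescence, fell by 1.84 ± 0.36 (adjusted p = 9.24e-04), and Ccng2, cyclin G2, was 21.7-fold higher (95% counting interval 5.4 to 189, adjusted p = 0.00274), with a fitted log2 difference of 3.55 that was 4.20 without CD115plusGMP replicate 3. The count for cell cycle inhibitors was 2 lower without CMP replicate 1, 2 lower without CMP replicate 2 and 1 lower without CMP replicate 3. The majority turned with 9 libraries sharing the spread, at 1 higher and 0 lower. Splicing factors had 1 of 89 higher and 4 lower, and histone-modifying enzymes and acetyltransferases 1 of 34 and 0. Prpf4b, a splicing kinase, fell by 1.82 ± 0.37 (adjusted p = 0.00118). The count for splicing factors was 2 lower without CMP replicate 1, 1 lower without CMP replicate 2, 2 lower without CMP replicate 3 and 7 lower without CD115plusGMP replicate 1.

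Metabolic lists moved through particular enzymes, beside 13.4% called higher and 9.74% called lower among all members. The shares that rose in the TCA and pyruvate, fatty acid and nucleotide lists did not exceed 13.4%. Of glycolysis and pentose phosphate genes, 7 of 28 rose and 6 fell, with a median log2 difference of 0.17 (0.28 from read ratios held at their bounds). The calls turned to 6 higher and 7 lower with reads scaled to genes with a symbol, and to 5 and 6 over members with at least 30 reads. The count for glycolysis genes was 3 lower without CMP replicate 1, 2 lower without CMP replicate 3 and 3 lower without CD115plusGMP replicate 3. Pkm, the pyruvate kinase of most tissues, rose. Pkm stood at 2.67, 2.09 and 2.59 log2 CPM in CMP replicates 1 to 3 and at 7.38, 6.65 and 7.03 log2 CPM in CD115plusGMP replicates 1 to 3. The populations did not overlap. Pkm rose by 4.57 ± 0.34 (adjusted p = 1.53e-08). Pklr (partner Hcn3), the pyruvate kinase of red cells and liver, was at least 16.5-fold lower (adjusted p = 1.42e-05), and its partner Hcn3 fell as well. Hk2 had 0, 0 and 0 reads in CMP replicates 1 to 3 and 8, 2 and 12 reads in CD115plusGMP replicates 1 to 3. Hk2 was at least 12.7-fold higher (adjusted p = 3.01e-04), with a fitted log2 difference of 4.49 that was 5.08 without CD115plusGMP replicate 2, and Hk3 was 26-fold higher (95% counting interval 6.6 to 225, adjusted p = 5.59e-04), with a fitted log2 difference of 4.21 that was 4.86 without CMP replicate 3, both hexokinases. In the TCA and pyruvate list, 3 of 29 rose and 2 fell, turning to 2 and 8 with reads scaled to genes with a symbol, to 3 and 4 after quantile normalization and to 2 and 3 without CD115plusGMP replicate 1. Idh1 stood at 0.79, 0.51 and 1.49 log2 CPM in CMP replicates 1 to 3 and at 5.21, 5.04 and 3.84 log2 CPM in CD115plusGMP replicates 1 to 3. Idh1, the cytosolic isocitrate dehydrogenase, rose by 3.77 ± 0.63 (adjusted p = 2.18e-04). Pdha1 (partner Map3k15), of pyruvate dehydrogenase, rose by 2.44 ± 0.27 (adjusted p = 2.77e-06). For cholesterol synthesis and uptake, 5 of 18 rose and 1 fell, with a median log2 difference of 0.59 (0.43 from read ratios held at their bounds). Mvd stood at 2.02, 3.01 and 1.86 log2 CPM in CMP replicates 1 to 3 and at 5.89, 5.47 and 5.95 log2 CPM in CD115plusGMP replicates 1 to 3. Mvd, of the mevalonate pathway, rose by 3.47 ± 0.43 (adjusted p = 9.70e-06). Soat1, which esterifies cholesterol, was 45.1-fold higher (95% counting interval 7.4 to 1848, adjusted p = 2.59e-04). Fatty acid genes had 2 of 34 higher and 3 lower, a majority that turned to 4 and 3 with 2 reads added and without CD115plusGMP replicate 2. Fads3 was at least 6.15-fold lower (adjusted p = 7.15e-04) and Fads1 was 23.1-fold lower (95% counting interval 3.91 to 934, adjusted p = 0.00204), both desaturases. Cpt1a stood at 4.34, 4.70 and 4.75 log2 CPM in CMP replicates 1 to 3 and at 6.96, 6.29 and 6.98 log2 CPM in CD115plusGMP replicates 1 to 3. Cpt1a, which brings fatty acids into mitochondria, rose by 2.15 ± 0.27 (adjusted p = 9.17e-06). The count for fatty acid genes was 5 lower without CD115plusGMP replicate 1 and 4 higher without CD115plusGMP replicate 2. Nucleotide synthesis had 5 of 38 higher and 2 lower, turning to 4 and 9 with reads scaled to genes with a symbol. Gart (partner Gm15964) rose by 3.01 ± 0.34 (adjusted p = 2.77e-06) and Ppat (partner Paics) fell by 1.73 ± 0.40 (adjusted p = 0.00341), neighbouring steps of purine synthesis. Adssl1, of AMP synthesis, rose by 2.78 ± 0.54 (adjusted p = 8.39e-04). The count for nucleotide synthesis genes was 3 higher without CMP replicate 1, 3 higher without CD115plusGMP replicate 1 and 6 lower without CD115plusGMP replicate 1.

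**Figure D5:**
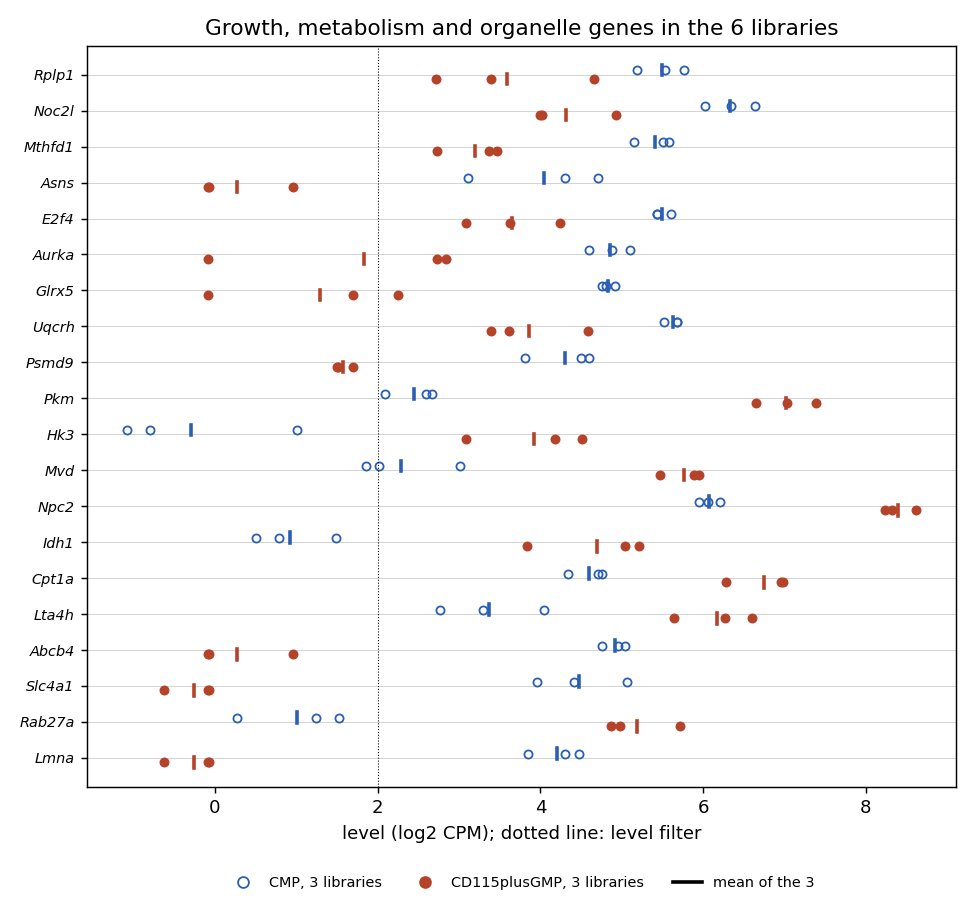
Level in log2 CPM of 20 named genes of growth, metabolism and organelles, 1 point per library (open blue, CMP; filled red, CD115plusGMP) with ticks at the mean of 3. Pkm, Hk3, Mvd, Npc2, Idh1, Cpt1a, Lta4h and Rab27a are higher in CD115plusGMP and the other 12 are higher in CMP.

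Transporters and regulators of protein turnover were divided between the populations, beside 13.4% called higher and 9.74% called lower among all members. Of solute carriers, 9 of 95 rose and 12 fell, with a median log2 difference of 0.11 (0.19 from read ratios held at their bounds). The majority turned to 14 higher and 12 lower with 2 reads added and to 13 and 12 without the minimum difference. Slc4a1 had 13, 22 and 41 reads in CMP replicates 1 to 3 and 0, 0 and 0 reads in CD115plusGMP replicates 1 to 3. Slc4a1, the anion exchanger of red cells, was at least 14.6-fold lower (adjusted p = 4.88e-05). Slc38a5, an amino acid transporter, was at least 8.84-fold lower (adjusted p = 1.94e-04). ABC transporters had 3 of 18 higher and 6 lower. Abcb4 stood at 5.04, 4.75 and 4.95 log2 CPM in CMP replicates 1 to 3 and at 0.96, -0.09 and -0.07 log2 CPM in CD115plusGMP replicates 1 to 3. Abcb4, a phospholipid transporter, was 54.2-fold lower (95% counting interval 9.5 to 2164, adjusted p = 2.60e-05). Abcb6, a porphyrin transporter, was at least 6.35-fold lower (adjusted p = 0.00226), while Abcd2, of peroxisomes, was at least 9.82-fold higher (adjusted p = 1.76e-04). Of ion channels, 5 of 31 rose and 5 fell. Kcnk12 was at least 5.78-fold higher (adjusted p = 7.92e-04) and Cacna1d (partner Chdh) rose by 3.48 ± 0.15 (adjusted p = 1.72e-11), a potassium and a calcium channel. The count for ion channels was 3 lower without CMP replicate 1, 3 lower without CMP replicate 2 and 3 lower without CMP replicate 3. Zinc finger proteins named Zfp had 11 of 103 higher and 4 lower, turning to 7 and 10 with reads scaled to genes with a symbol. Zfp114 was 31.2-fold higher (95% counting interval 4.93 to 1300.1, adjusted p = 6.25e-04). The count for zinc finger proteins was 7 higher without CMP replicate 2 and 2 lower without CMP replicate 2. For ubiquitin-specific proteases, 2 of 36 rose and 6 fell, with a median log2 difference of -0.38 (-0.42 from read ratios held at their bounds). Usp20 was at least 15.8-fold lower (adjusted p = 1.73e-05) and Usp24 fell by 2.33 ± 0.57 (adjusted p = 0.00489). The count for ubiquitin-specific proteases was 3 lower without CMP replicate 3. Trim10, a tripartite motif protein of erythroid cells, was at least 10.2-fold lower (adjusted p = 2.54e-04). Apaf1, the apoptosome core, rose by 2.47 ± 0.55 (adjusted p = 0.00252).

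Marker lists of other cell types were read in the same libraries, as summed CPM over the listed genes. The megakaryocyte and platelet list summed to 189.9 to 209 CPM in CMP and 68.6 to 80.6 in CD115plusGMP, with 20 of 27 genes in the table having reads and Ppbp, Gp1bb, Clec1b, Thbs1, Cd9 and Tubb1 among those at 0. Of its 8 members, 1 rose and 4 fell. Without Gfi1b and Zfpm1, which the erythroid list also holds, the sums were 63.4 to 99.0 CPM in CMP and 65.9 to 79.3 CPM in CD115plusGMP and overlapped. Gfi1b, a factor of the erythroid and megakaryocyte lines, was at least 11.2-fold lower (adjusted p = 7.47e-05). Zfpm1, the GATA cofactor FOG1, was 60.8-fold lower (95% counting interval 20.6 to 296, adjusted p = 4.85e-07), with a fitted log2 difference of -5.60 that was -6.19 without CD115plusGMP replicate 2. The stem and multipotent progenitor list summed to 185 to 204 CPM and 83.8 to 140.5 CPM, with 15 of 18 genes having reads and Ly6a and Egr1 among those at 0. Without Lmo2 and Tal1, shared with the erythroid list, the sums were 66.3 to 83.7 and 47.0 to 89.7 CPM and overlapped as well. Lmo2 fell by 1.16 ± 0.29 (adjusted p = 0.00566), a difference that was -0.79 without CD115plusGMP replicate 3 (adjusted p = 0.0186, not called). The count for stem cell genes was 2 lower without CD115plusGMP replicate 3. Dendritic cell and MHC class II genes summed to 45.9 to 58.7 CPM and 105 to 163 CPM, with 20 of 21 having reads. Xcr1 rose by 2.50 ± 0.53 (adjusted p = 0.0016) and Cst3 rose by 2.20 ± 0.35 (adjusted p = 1.40e-04). Plasmacytoid dendritic cell genes summed to 77.6 to 103 and 56.4 to 130.1 CPM, all 11 with reads, and of 5 members 1 rose and 1 fell. Siglech, with 14 reads in CMP, was at least 2.69-fold lower (adjusted p = 0.0115), while Irf8, on the same list, rose by 1.86. The list median was -0.60 and turned to 0.63 over members with at least 30 reads. Basophil and mast cell genes summed to 16.9 to 23.7 and 29.9 to 47.0 CPM, with Mcpt8, Ms4a2 and Fcer1a among 5 of 14 at 0. Mature neutrophil genes summed to 48.3 to 56.6 and 90.3 to 157 CPM, with Mmp9, Fpr1, Fpr2 and Stfa2l1 at 0 among 21. B cell genes summed to 27.7 to 42.6 and 3.81 to 13 CPM with Bank1 and Fcrla among those at 0. T and NK cell genes summed to 0.804 to 3.79 and 1.3 to 9.41 CPM with Cd3e and Cd4 at 0, and eosinophil genes to 0 to 1.61 and 5.71 to 9.41 CPM. The stroma and endothelium list, which includes Eng and Pecam1, summed to 115 to 156 and 53.3 to 75.3 CPM with Cxcl12 and Col1a1 at 0. The erythroid list, set aside above, summed to 1245 to 1449.7 CPM in CMP and 110.5 to 190.0 CPM in CD115plusGMP. The monocyte list summed to 246 to 279 and 2049 to 2971 CPM. The part of these lists in the differences of the other families was not tested.

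The loci with a partner that had the largest differences are reported apart, because the reads may belong to the neighbour. Other genes with a partner are named with it in the paragraphs above, and the list counts and medians include such genes unless said otherwise. Mcf2l had 0, 0 and 1 reads in CMP replicates 1 to 3 and 27, 21 and 21 reads in CD115plusGMP replicates 1 to 3. Mcf2l (partner Gm15353) was 119.6-fold higher (95% counting interval 20.8 to 4792, adjusted p = 3.70e-06). App (partner Gm49227) was 101-fold higher (95% counting interval 17.3 to 4039, adjusted p = 1.60e-05). Mtus1 (partner B430010I23Rik) rose by 5.03 ± 0.81 (adjusted p = 1.49e-04), a difference that was 6.08 without CMP replicate 2 and 4.38 without CMP replicate 3. With Emb and Acvrl1, these were the 5 largest increases of this kind. Asb17 and its antisense transcript Asb17os fell together, and each is the partner of the other. Asb17 stood at 8.09, 8.07 and 8.12 log2 CPM in CMP replicates 1 to 3 and at 1.70, 2.72 and 1.51 log2 CPM in CD115plusGMP replicates 1 to 3. No CMP library overlapped a CD115plusGMP library. Asb17 (partner Asb17os) fell by 6.11 ± 0.34 (adjusted p = 3.36e-10). Asb17os (partner Asb17) was at least 45.6-fold lower (adjusted p = 1.09e-07). Sphk1 (partner Gm29292), sphingosine kinase 1, was 151-fold lower (95% counting interval 26.9 to 5992, adjusted p = 1.29e-07). Kifc2 (partner Cyhr1), a kinesin, was at least 30.2-fold lower (adjusted p = 9.79e-07), and Sowaha (partner Gm9945) was 130.4-fold lower (95% counting interval 23.2 to 5172, adjusted p = 9.80e-07), with a fitted log2 difference of -5.89 that was -6.51 without CD115plusGMP replicate 2.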

How the data were processed

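The authors deposited 1 table of log2 CPM values, made per the submitters' processing notes with FastQC 0.11.7, featureCounts 1.22.2 and edgeR 1.30.5 on GRCm38 (mm10). Libraries were made with the Universal Plus mRNA-Seq kit per the labels' protocols. No source used here names the aligner, the strand setting or the annotation. Every deposited log2 value was a whole number of reads plus 0.5 on a step constant within its library (tolerance 0.001 reads), so reads were recovered.

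Genes above 2 log2 CPM in at least 3 of the 6 libraries were fitted with limma 3.58.1 in R 4.3.3 (a mean per group, eBayes with trend), that is 7331 with a symbol and 415 without. 2-tailed p-values received a Benjamini-Hochberg adjustment across the 7746 genes. The fit was tested on simulated data. Partners came from GENCODE M21. Intervals and bounds (3 reads over a group) cover counting error only, and a bounded read ratio replaces 0 reads by 3.

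Members, lists and the naming rule were chosen with earlier results of these data known. Named are the 10 largest increases and decreases among called members with at least 30 reads, no overlap of libraries, no partner and no predicted-gene symbol, granule, NADPH oxidase and granulocyte factor, erythroid and monocyte lists and a set of genes singled out in earlier results of these data left aside; up to 4 members of each described list by size, called ones first, with at least 10 reads; the sort genes; and 5 partner loci in each direction. Some genes that the rule names are not reported here. From the list members, those called in most leave-one-out fits were preferred. Lists were described when at least 5 members were tested and either 3 were called or the median stood 0.5 from that of all members.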

Additional observations from a re-analysis of the deposited data

How the results depend on the processing

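The count of 1699 calls was 1116 when the 9 libraries of CMP, CD115plusGMP and Neutrophil shared the spread, with 380 lower calls in place of 714. It was 867 over the 4412 members without an opposite-strand partner (483 higher, 384 lower), where fewer genes enter by construction. Scaling to reads on genes with a symbol gave 1224 lower calls. For these changes with the spread and the scaling the cause was not tested. Leaving out 1 library gave 1317 to 1752 calls, with 831 to 952 higher and 455 to 921 lower. Without CD115plusGMP replicate 1 lower calls outnumbered higher ones, at 921 and 831. The 2 lowest counts of lower calls were those without CMP replicates 2 and 3. With the replicate number as a block, 1736 members were called (999 higher, 737 lower), of which 1653 were shared. The numbers are not shown to pair the libraries, since deviations of same-numbered libraries correlated at -0.04, -0.02 and 0.002. The remaining settings, namely no filter, at least 30 reads, 15 libraries, median centring, quantile normalization, 2 reads added, voom weights, adjustment over genes with a symbol and no minimum difference, gave 1388 to 2016 calls. Depth is the limit for single genes, since 5239 of 7331 members had at least 30 reads over the 6 libraries.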
